A study of Mus musculus with 20 samples.

Results

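The genes described here encode the machinery that brings proteins into the endoplasmic reticulum (ER) and processes them there, 34 genes in all out of 21521 protein-coding genes that lie on the autosomes or X. They were listed by name for their known function, with earlier results of these data known, and fall into 4 groups: 8 genes of the signal recognition particle (SRP) and its receptor, 11 of the Sec61 channel and its partners, 5 of signal peptidase and 10 of oligosaccharyltransferase. ATF4, the transcription factor of the integrated stress response, was mapped by CUT&Tag, in which an antibody directs a transposase to a chromatin protein so that the neighbouring DNA is tagged and sequenced. The cells were C2C12 mouse myoblasts, an immortal line with a wild-type genotype. They received 100 nM thapsigargin for 6 h, which blocks the calcium pump of the ER and so causes ER stress, or DMSO, its solvent, for 6 h. Each treatment had 2 ATF4 samples and is represented by 1 deposited peak list, with 8619 peaks for thapsigargin and 803 for DMSO.

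A peak list gives the chromosome, start and end of each peak, with no height and no replicate values, so nothing below could be tested against a spread between samples. The counts describe these 2 lists, and a longer list can reach more genes by its length alone. Wilson intervals given below cover counting error over genes only and are not tests. Because the genes were chosen with earlier results known, a background share outside an interval does not set a count apart either. The depth of sequencing is unknown. Expression was not measured in these files, and the label of myoblast could not be checked against expressed markers.

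Secreted and membrane proteins carry a signal sequence that SRP recognises as it leaves the ribosome, and the SRP receptor docks the complex at the ER membrane. The chain then passes through the Sec61 channel, signal peptidase removes the signal, and oligosaccharyltransferase transfers a preassembled glycan from a lipid carrier to asparagine residues. Thapsigargin raises the load of unfolded protein in this compartment, which activates the kinase PERK and, through it, the translation of ATF4.

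In thapsigargin, ATF4 peaks lay at the ends of 16 of the 34 genes, with the peak centre within 1 kb of the start or end of the gene (47.1%, 95% Wilson interval 31.5% to 63.3%, counting error only). The share over all protein-coding genes was 15.2%. In DMSO the count was 1 of 34 (2.94%), against 1.29% of all protein-coding genes. The 1 gene was Ostc, whose product is a subunit of the oligosaccharyltransferase complex built on STT3A. Of the genes with a thapsigargin peak at an end, a DMSO peak at an end was found at 1 of these 16 and at 8.39% over all protein-coding genes. None of the 34 genes had a peak in its body without one at an end in either list (95% Wilson interval 0% to 10.2%). The share of all protein-coding genes was 8.35% in thapsigargin and 1.29% in DMSO, both inside that interval. Genes with a peak at an end could not count here. In thapsigargin this left out 16 of the 34 genes, against 15.2% of all protein-coding genes. The count of none is not set apart from the background.

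**Figure D1:**
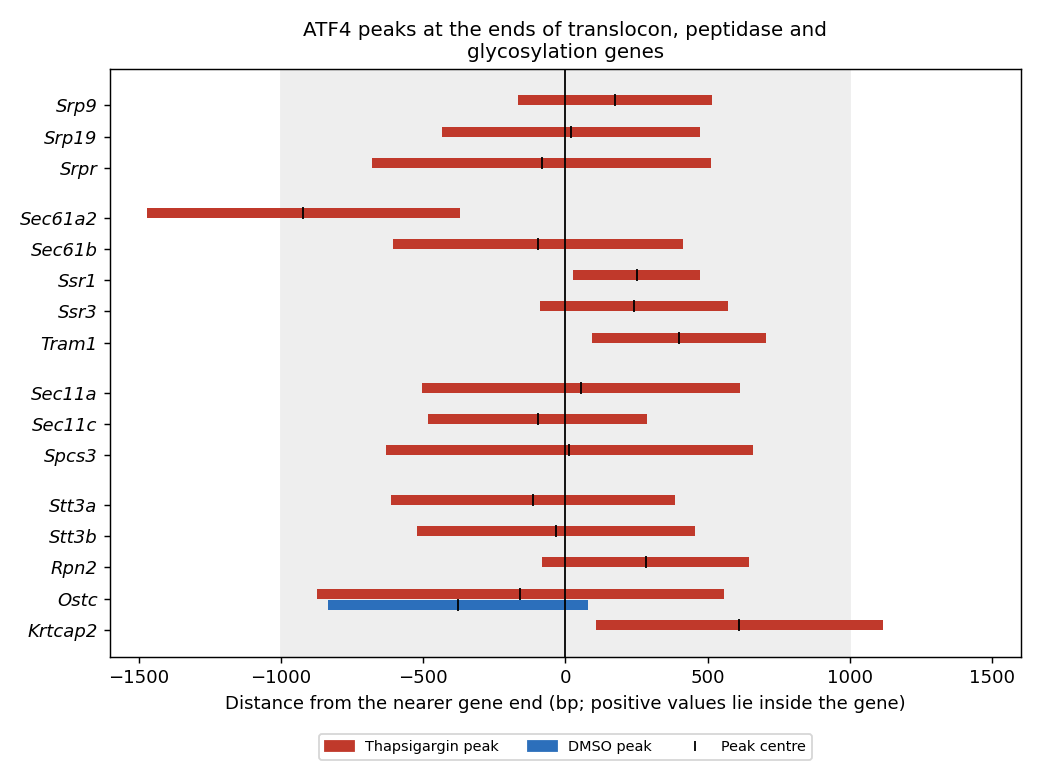
Thapsigargin peaks (red) and DMSO peaks (blue) at the 16 genes with a peak centre within 1 kb of an end, drawn to scale as distance in bp from the nearer gene end, with positive values inside the gene. The grey band marks 1 kb on either side, and Ostc is the 1 gene with a peak in both lists.

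The promoters that lay wholly under a thapsigargin peak are shown because they are the DNA that these peaks mark. Each is RefSeq sequence of GRCm38.p6, the assembly to which mm10 corresponds, running 5′ to 3′ from 250 bases before to 50 bases after the gene start. Promoter entries were matched for 25 of the 34 genes, and 6 of these promoters were wholly covered. Capitals mark CCAAT (the NF-Y box), GGGCGG (the GC box) and TGACGT (the letters shared by the CRE and the UPR element), each in either direction.
Srpr, chr9:35210953-35211252, plus strand: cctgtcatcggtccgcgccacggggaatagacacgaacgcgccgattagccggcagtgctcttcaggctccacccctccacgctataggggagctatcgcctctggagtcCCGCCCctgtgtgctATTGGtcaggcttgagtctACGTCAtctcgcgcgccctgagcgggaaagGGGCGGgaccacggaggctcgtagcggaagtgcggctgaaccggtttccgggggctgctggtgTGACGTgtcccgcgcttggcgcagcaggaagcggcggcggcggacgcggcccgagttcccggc
Sec11a, chr7:80947501-80947800, minus strand: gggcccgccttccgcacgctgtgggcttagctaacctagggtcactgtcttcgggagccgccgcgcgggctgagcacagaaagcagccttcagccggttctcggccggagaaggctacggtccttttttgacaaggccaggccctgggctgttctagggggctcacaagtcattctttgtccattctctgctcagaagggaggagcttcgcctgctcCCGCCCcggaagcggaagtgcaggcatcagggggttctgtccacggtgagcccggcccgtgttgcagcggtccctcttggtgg
Sec61b, chr4:47474411-47474710, plus strand: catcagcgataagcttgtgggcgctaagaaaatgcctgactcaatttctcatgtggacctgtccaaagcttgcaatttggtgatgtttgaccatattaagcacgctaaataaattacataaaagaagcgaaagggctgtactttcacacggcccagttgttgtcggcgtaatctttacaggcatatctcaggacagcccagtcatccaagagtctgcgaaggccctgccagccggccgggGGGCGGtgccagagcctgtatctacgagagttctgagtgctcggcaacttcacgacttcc
Krtcap2, chr3:89246188-89246487, plus strand: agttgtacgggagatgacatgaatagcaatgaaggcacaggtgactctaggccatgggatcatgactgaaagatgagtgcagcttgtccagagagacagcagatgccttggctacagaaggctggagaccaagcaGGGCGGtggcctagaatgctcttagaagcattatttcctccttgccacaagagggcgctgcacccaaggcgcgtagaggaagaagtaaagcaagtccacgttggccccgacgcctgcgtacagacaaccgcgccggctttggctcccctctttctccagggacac
Stt3a, chr9:36767573-36767872, minus strand: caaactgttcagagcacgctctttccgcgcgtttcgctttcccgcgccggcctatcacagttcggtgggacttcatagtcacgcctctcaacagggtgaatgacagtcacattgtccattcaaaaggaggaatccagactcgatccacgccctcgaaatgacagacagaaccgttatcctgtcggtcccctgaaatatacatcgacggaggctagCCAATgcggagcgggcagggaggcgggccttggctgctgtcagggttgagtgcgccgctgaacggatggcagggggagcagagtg
Stt3b, chr9:115310419-115310718, minus strand: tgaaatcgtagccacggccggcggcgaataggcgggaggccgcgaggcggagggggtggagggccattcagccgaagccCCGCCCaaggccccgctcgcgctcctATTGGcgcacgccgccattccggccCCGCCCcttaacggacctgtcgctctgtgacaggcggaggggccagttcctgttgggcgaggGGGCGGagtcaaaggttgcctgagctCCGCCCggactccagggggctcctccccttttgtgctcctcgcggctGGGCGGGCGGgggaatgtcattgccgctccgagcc

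Of the SRP and its receptor, 3 of 8 genes had a thapsigargin peak at an end and none had a DMSO peak there. The shares of all protein-coding genes were 15.2% in thapsigargin and 1.29% in DMSO. Both lie inside the Wilson intervals of these counts, 13.7% to 69.4% and 0% to 32.4%. Neither count is therefore set apart from the background. Srp19, whose product binds the SRP RNA, had a peak of 907 bp on chromosome 18 (34330688 to 34331594), centred 20 bp inside the gene. Srpr, the gene of the receptor's alpha subunit, had one of 1194 bp on chromosome 9 (35210523 to 35211716), centred 83.5 bp before the gene start, and its promoter carries the letters TGACGT in both directions. Srp9, which encodes part of the dimer that slows translation during targeting, had a peak of 683 bp on chromosome 1 (182124569 to 182125251), centred 173 bp into the gene. Its dimer partner Srp14 had no thapsigargin peak within 50 kb, the nearest being 69.9 kb away.

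The remaining SRP genes had no peak of their own. The thapsigargin peak nearest to Srp72 lay 23.2 kb away and was also in the DMSO list. It was centred 78.5 bp from an end of Ppat and within 1 kb of the adjoining end of Paics, both purine synthesis genes. Near Srp68 the closest peak was 26.1 kb away, with an end of Evpl nearer to it. Srp54a, which encodes the GTPase that binds the signal sequence, and Srprb, the membrane-anchored receptor subunit, had no thapsigargin peak within 50 kb, the nearest being 218 kb and 194 kb away. Srp54a has near-identical copies on the same chromosome, Srp54b and Srp54c, which had no peak within 50 kb either. How reads that match several copies were placed is not given in the sources used here.

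At the channel and its partners, 5 of 11 genes had a thapsigargin peak at an end (Wilson interval 21.3% to 72%). The share of all protein-coding genes was 15.2%. None of the 11 had a DMSO peak there, a count not set apart from the 1.29% of all protein-coding genes. The small channel subunit gene Sec61b had a peak of 1018 bp on chromosome 4 (47474056 to 47475073), centred 96.5 bp before the gene start. The same peak was centred 197.5 bp from an end of Alg2, a mannosyltransferase gene of glycan precursor synthesis, so that 1 peak counted for a channel gene and a glycosylation gene. The genes of the pore-forming subunit differed. Sec61a1, the widely expressed form, had no peak closer than 39.1 kb, in Kbtbd12. Its paralog Sec61a2 had a thapsigargin peak centred 921 bp beyond its 3′ end, on chromosome 2 from 5869507 to 5870605, inside the neighbouring gene Nudt5 and 764 bp from that gene's end. The peak did not reach Sec61a2 itself. Sec61g, the third channel subunit gene, had none within 50 kb.

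Among the channel's partners, the translocon-associated protein genes Ssr1 and Ssr3 had narrow thapsigargin peaks centred just inside the gene. The Ssr1 peak lay wholly inside it, and the Ssr3 peak crossed the gene start. The Ssr1 peak was 445 bp wide on chromosome 13 (37993736 to 37994180), the narrowest of the 16, and the Ssr3 peak 660 bp on chromosome 3 (65391982 to 65392641). Their centres lay 250 bp and 241.5 bp from the gene start. Ssr2 had no peak of its own, and 3 thapsigargin peaks lay 26.5 to 37.1 kb from its ends. One of them, 2093 bp wide and inside Arhgef2, overlapped a DMSO peak of 1069 bp. Tram1, which encodes a membrane protein next to nascent chains in the channel, had a peak of 613 bp on chromosome 1 (13589205 to 13589817), centred 399 bp inside the gene. Tram2 had one 5.48 kb upstream of its start, and no protein-coding gene end was closer to that peak. The genes of the post-translational translocation partners had no peak at an end: the nearest was 33.9 kb from Sec62, beside Gpr160, and 283 kb from Sec63.

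In signal peptidase, 3 of 5 genes had a thapsigargin peak at an end (Wilson interval 23.1% to 88.2%) and none had a DMSO peak there. The shares of all protein-coding genes were 15.2% and 1.29%, and the DMSO count is not set apart from the latter. Within 50 kb the counts were the same, 3 of 5 in thapsigargin and 0 of 5 in DMSO, where the shares of all protein-coding genes were 51.4% and 8.05%, so that these counts lie near the background. Both genes of the catalytic subunit were marked. The Sec11a peak was 1118 bp wide on chromosome 7 (80946936 to 80948053), centred 55.5 bp into the gene. The Sec11c peak was 771 bp wide on chromosome 18 (65800095 to 65800865), centred 98 bp outside it. Spcs3, an accessory subunit gene, had a peak of 1290 bp on chromosome 8 (54529340 to 54530629) centred 13.5 bp from the gene end, the closest of all 34 genes. The other accessory subunit genes, Spcs1 and Spcs2, were 55.3 kb and 477 kb from any thapsigargin peak.

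In oligosaccharyltransferase, 5 of 10 genes had a thapsigargin peak at an end (Wilson interval 23.7% to 76.3%). The share of all protein-coding genes was 15.2%. Both catalytic subunit genes were among the 5. Stt3a, which acts on chains as they enter the ER, had a peak of 998 bp on chromosome 9 (36767238 to 36768235), centred 114.5 bp before the gene start. Stt3b, which also acts on sites that were skipped, had one of 979 bp on the same chromosome (115310012 to 115310990), centred 33 bp before it. A further thapsigargin peak of 1990 bp lay 2.79 kb beyond the other end of Stt3a, over a DMSO peak of 777 bp. The thapsigargin peak was centred 107.5 bp and the DMSO peak 113 bp from an end of Chek1, a DNA damage kinase gene.

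Ostc was the 1 gene of the 34 with a peak at an end in both lists. Its thapsigargin peak was 1432 bp wide on chromosome 3 (130708887 to 130710318), the widest of the 16, and its DMSO peak 917 bp (130709363 to 130710279). The thapsigargin peak was centred 158.5 bp and the DMSO peak 377 bp outside the gene, and no other protein-coding gene had an end within 1 kb of them. A second thapsigargin peak of 985 bp was centred 1090 bp beyond the opposite end of Ostc and had no DMSO overlap. Krtcap2, another gene of the STT3A form of the enzyme, had a thapsigargin peak of 1013 bp on chromosome 3 (89246010 to 89247022), centred 612 bp inside the annotated gene and 78 bp after the gene start of the promoter entry. Rpn2, a ribophorin gene, had a peak of 731 bp on chromosome 2 (157279015 to 157279745), centred 282 bp into the gene.

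The other oligosaccharyltransferase genes had no peak at an end. Ribophorin I gene Rpn1 had its nearest thapsigargin peak 39.4 kb away, and a DMSO peak overlapped it. That site was centred 177.5 bp in thapsigargin and 59 bp in DMSO from an end of Rab7, an endosomal GTPase gene. For Ddost the nearest was 13.3 kb away, beside the mitochondrial kinase gene Pink1. Dad1, Ost4 and Tusc3, the last an oxidoreductase subunit gene of the STT3B form, had none within 50 kb, with the nearest 264 kb, 141 kb and 1140 kb away.

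**Figure D2:**
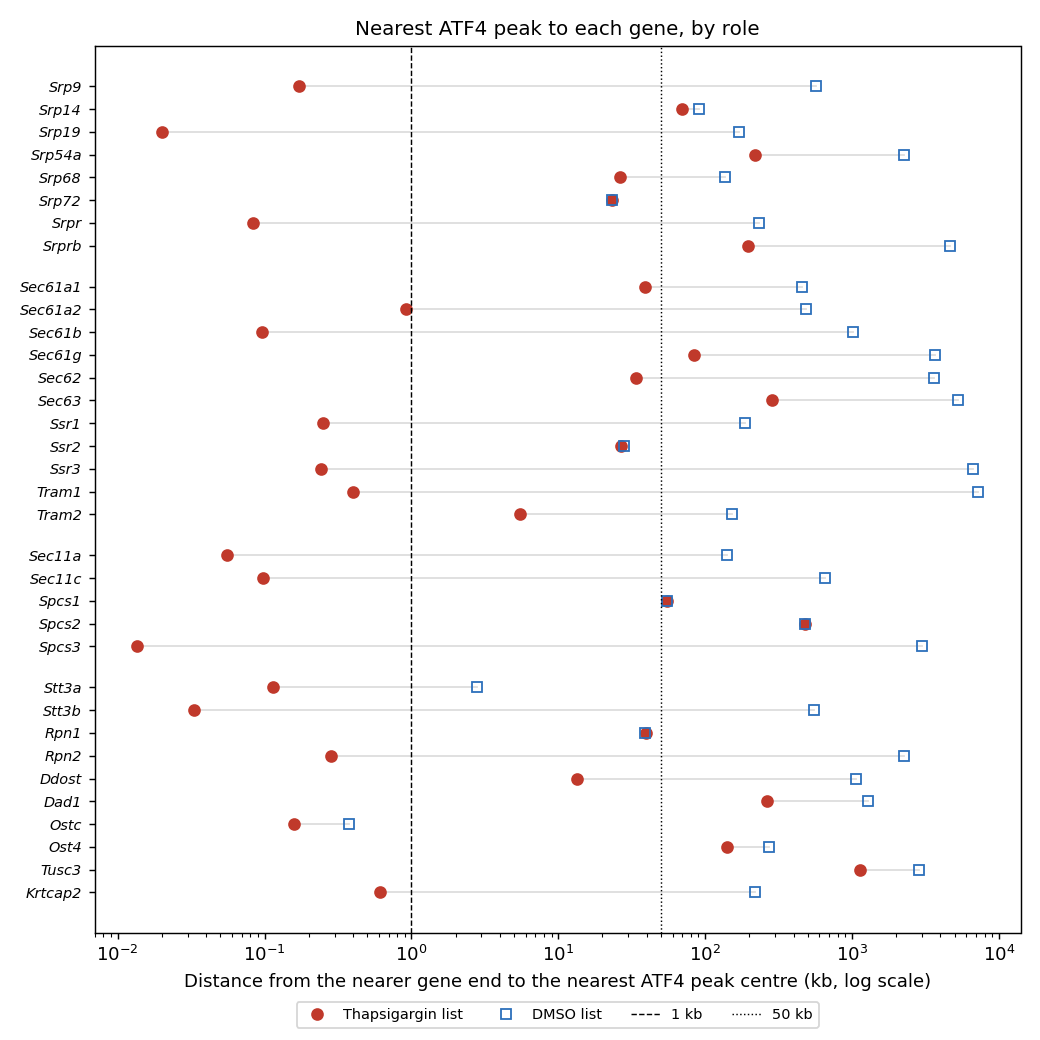
Distance in kb, on a log scale, from the nearer end of each of the 34 genes to the nearest ATF4 peak centre in the thapsigargin list (red circles) and the DMSO list (blue squares), with genes grouped by role. For 16 genes the thapsigargin peak lies left of the 1 kb line, and for 1 gene, Ostc, the DMSO peak does too.

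With the reach extended to 50 kb, 24 of 34 genes had a thapsigargin peak inside or near them (70.6%), against 51.4% of all protein-coding genes. In DMSO it was 5 of 34 (14.7%, Wilson interval 6.45% to 30.1%). The share of all protein-coding genes, 8.05%, lies inside that interval, so the DMSO count is not set apart from it. Of the 24 genes with a thapsigargin peak, 16 are those already counted with a peak at an end. Over all protein-coding genes it was 3267 of 11053. The higher share within 50 kb therefore cannot be read apart from the count at ends. The other 8 genes had no peak at an end. For 7 of these 8 the nearest peak was closer to an end of another protein-coding gene, Tram2 being the exception. The 5 genes with a DMSO peak within 50 kb were Srp72, Ssr2, Stt3a, Rpn1 and Ostc, and in each case a thapsigargin peak overlapped it. The median distance from a gene end to the nearest thapsigargin peak was 9.41 kb for the 34 genes and 48.9 kb for all protein-coding genes. For the nearest DMSO peak the medians were 481 kb and 837 kb. The median gene length was 17.8 kb for the 34 genes and 17.4 kb for all.

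Near the limit of 1 kb, the genes just inside were Krtcap2 at 612 bp and Sec61a2 at 921 bp, and the nearest gene outside was Tram2 at 5.48 kb. The count therefore did not change with windows of 3 kb and 5 kb, at 16 of 34 in both. The share of all protein-coding genes was 18.7% and 21.2% there.

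The widths of the peaks at these genes spread over much of the list. Over the 16 the median was 988 bp with a range of 445 to 1432 bp, and over all 2739 thapsigargin peaks at protein-coding gene ends it was 1030 bp. Within the thapsigargin list their width percentiles ran from 2.6 to 82.2, with a median of 44.7. Only 5 of the 16, those of Srpr, Sec61a2, Sec11a, Spcs3 and Ostc, were wider than the median of the whole list, 1037 bp. Width is not a measure of occupancy. Among the 803 widest thapsigargin peaks none lay at an end of the 34 genes. The share of all protein-coding genes with one was 1.32%, so a count of none in 34 is not set apart from it.

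The strand of the gene was known for 11 of the 16. In 10 of these 11 the peak was at the 5′ end, the exception being Sec61a2, and over all protein-coding genes with a thapsigargin peak at an end and a known strand 95.3% had it there. The median distance of the centre from the 5′ end was 144 bp for the 10 genes and 214 bp over all genes. At 5 of the 16 genes the same peak was also centred within 1 kb of an end of another protein-coding gene (31.2%, against 33.9% of all protein-coding genes with such a peak). The pairs were Srpr with Foxred1, Sec61a2 with Nudt5, Sec61b with Alg2, Rpn2 with Mroh8 and Krtcap2 with Trim46. With each peak given to the nearest gene alone, Srpr, Sec61a2 and Krtcap2 dropped out and 13 of 34 genes were left, against 12.6% of all protein-coding genes. The loss of Krtcap2 depends on its annotated end, 612 bp from the peak centre. The gene start of its promoter entry lay 78 bp from that centre, and the end of Trim46 158 bp. No peak was shared between any 2 of the 16.

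**Figure D3:**
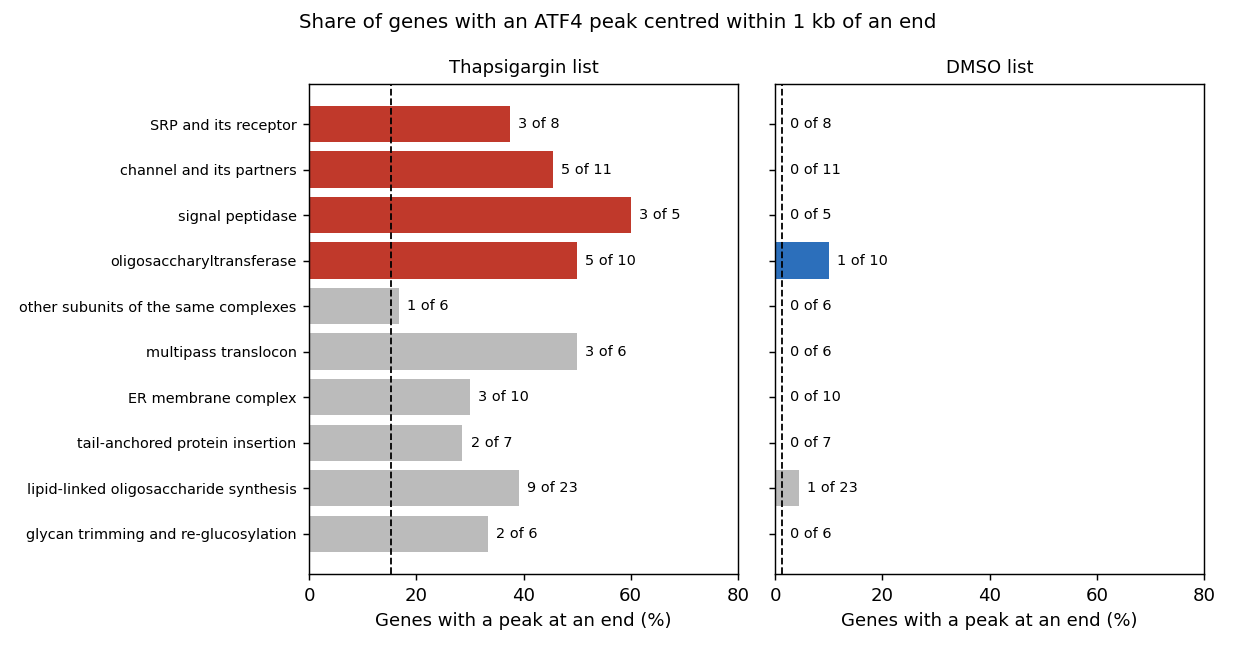
Share of genes, in percent, with an ATF4 peak centred within 1 kb of an end in the thapsigargin list (left) and the DMSO list (right), for the 4 role groups (coloured) and 6 wider lists (grey). Dashed lines mark the share of all protein-coding genes, 15.2% for thapsigargin and 1.29% for DMSO.

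Genes of the same pathway outside the 34 were looked up as 6 lists with 58 genes. In thapsigargin 20 of the 58 had a peak at an end (34.5%, against the 15.2% of all protein-coding genes). In DMSO 1 did (1.72%, near the 1.29% of all protein-coding genes). That gene was Dpm1, which makes the mannose donor for glycan assembly. It had a thapsigargin peak of 1477 bp and a DMSO peak of 482 bp at the same end. An end of Mocs3 lay 337 bp from the centre of the thapsigargin peak and 228.5 bp from that of the DMSO peak. At Emc6, Alg2, Alg3, Alg5 and Dolk the thapsigargin peak at the end was centred nearer to an end of another protein-coding gene. These were Tax1bp3, Sec61b, Eef1akmt4-ece2, Exosc8 and Nup188, in that order. The Alg2 peak is the one also counted for Sec61b.

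By list, synthesis of the lipid-linked oligosaccharide, the glycan that oligosaccharyltransferase transfers, had 9 of 23 genes with a thapsigargin peak at an end (39.1%). In order of peak width they began with Dpm1 (1477 bp), Alg3 (1450 bp), Dolpp1 (1372 bp) and Dolk (1367 bp), which encode a subunit of the mannose donor's synthase, a mannosyltransferase, a dolichol pyrophosphatase and dolichol kinase. The multipass translocon, which inserts membrane proteins with several spans, had 3 of 6 (50%), namely Ccdc47 (2159 bp), Tmem147 (986 bp) and Tmco1 (364 bp). The ER membrane complex, an insertase, had 3 of 10 (30%), with Emc6 (1341 bp), Emc7 (947 bp) and Emc2 (488 bp). Insertion of tail-anchored proteins had 2 of 7 (28.6%), Bag6 (1572 bp) and Get4 (1490 bp). Glycan trimming had 2 of 6 (33.3%), Man1b1 (1150 bp) and Prkcsh (688 bp). Of 6 other genes listed with the complexes described above, Mlec (1027 bp) had a peak, and Srp54b, Srp54c, Ssr4, Magt1 and Tmem258 had none at an end. The share of all protein-coding genes was 15.2%. It lies inside the Wilson intervals of the ER membrane complex (10.8% to 60.3%) and tail-anchored insertion (8.22% to 64.1%). The same holds for glycan trimming (9.68% to 70%) and these last 6 genes (3.01% to 56.4%). These counts are not set apart from it. For the lipid-linked oligosaccharide and the multipass translocon the intervals were 22.2% to 59.2% and 18.8% to 81.2%.

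The promoters were then searched for 8 motifs on both strands. Srp19, Tram1, Sec11c, Spcs3 and Ostc had a thapsigargin peak at an end but no promoter entry, so they were not searched. None of the 25 promoters held the C/EBP-ATF composite element (TGATGNAA), at which ATF4 binds with C/EBP partners, the CRE (TGACGTCA), the UPR element (TGACGTGG) or the ER stress element (CCAAT and CCACG spaced by 9 bases). Over the promoters of all 17274 protein-coding genes with an entry the shares were 3.5% for the composite element, 2.36% for the CRE, 0.677% for the UPR element and 0.162% for the ER stress element, so each is rare in windows of this size. A thapsigargin peak overlapped 2620 of these promoters, in whole or in part. There the shares were 3.93% for the composite element, 5.19% for the CRE, 1.11% for the UPR element and 0.344% for the ER stress element. Of the 10 such promoters here, 0 held any of them. The letters of some motifs overlap, as the ER stress element contains CCAAT. The C/EBP half-site pair (TTGCNNAA) was in 2 of 25, those of Rpn1 and Sec63, which had no peak at an end, against 10.3% of all. It was in 0 of the 10 promoters that a peak overlapped, against 7.37% of all such promoters. TGACGT, which the CRE and the UPR element share and which was chosen after the data had been seen, was in 2 of 25 (8%), against 8.81% of all. Among promoters that a thapsigargin peak overlapped it was in 1 of 10, against 17.8% of all such promoters. The 2 promoters with TGACGT were those of Srpr, shown above with its peak, and Srp54a, which had none.

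General promoter motifs were common. The CCAAT box was in 13 of 25 promoters (52%, against 39.6% of all) and the GC box in 19 of 25 (76%, against 46.9% of all). A thapsigargin peak overlapped 10 of the 25 promoters (40%), against 15.2% of all. Of these 10, 9 held a GC box, and over all promoters with a thapsigargin peak 71% did. Among promoters with a GC box a peak overlapped 9 of 19 (47.4%), against 23% of all protein-coding promoters with one. Without a GC box it was 1 of 6, Stt3a, against 8.28% of all. The median GC content was 63.2% in the 10 promoters that a peak overlapped and 59.3% in the other 15. It was 62% over all promoters with a thapsigargin peak and 56.3% over all promoters. The part of base composition in the counts was not tested. A match is a description of letters and not a binding site, and these windows cover only part of each peak. Some of the 10 promoters were overlapped only in part, so a match there can lie outside the peak, as the CCAAT boxes of Rpn2 did.

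**Figure D4:**
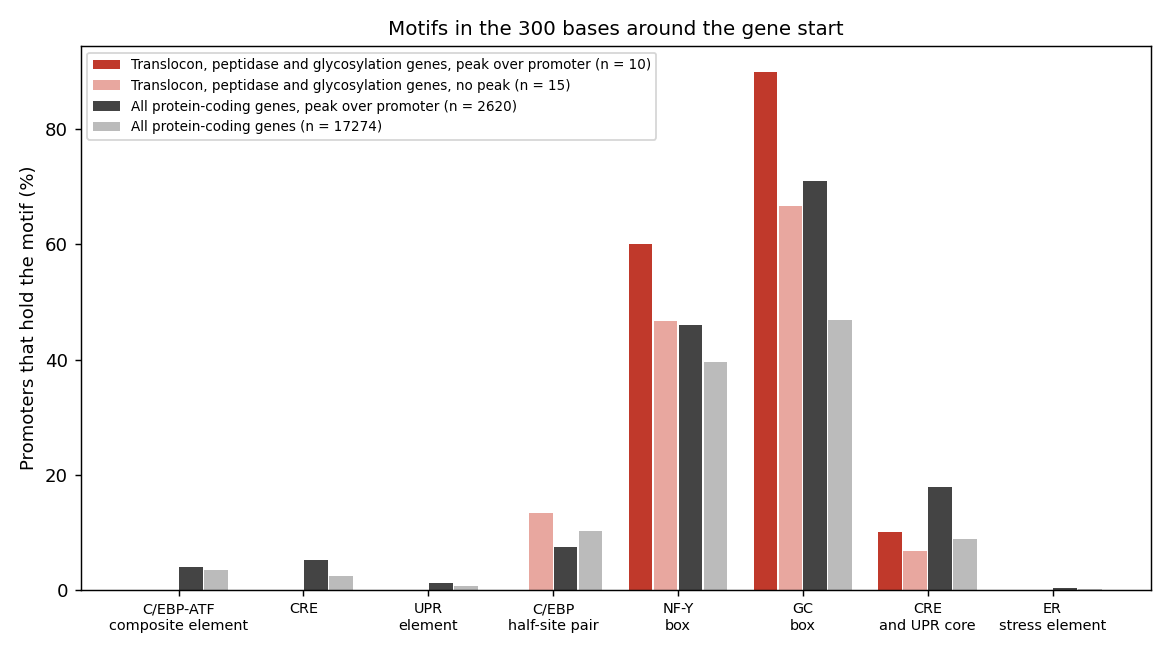
Percentage of promoters, 300 bases each, that hold each of 8 motifs on either strand. Red shades show the 10 promoters that a thapsigargin peak overlapped, in whole or in part, and the 15 without. Grey shades show all protein-coding promoters with such a peak, and all protein-coding promoters. The first 3 motifs and the ER stress element are in none of the 25, and GC boxes are in 9 of the 10 that a peak overlapped.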

How the data were processed

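The series lists 20 CUT&Tag samples, 5 targets in 2 treatments with 2 replicates each. The 4 ATF4 samples are represented here by 1 deposited peak list per treatment, grouped by titles and treatment labels. The other 8 groups were not analysed here, and the labels do not say whether replicates came from separate cultures. Each list holds the authors' peak starts and ends in bp without scores. Per the submitters' processing notes, the build was mm10 and the tools included MACS2 2.2.7.1, Bowtie2 and Trim Galore 0.6.10, with no role or setting named. The sources used here state no peak threshold, control library or way of combining replicates.

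A RefSeq table of GRCm38.p6 gave the gene positions. On chromosomes 1 to 19 and X, 110 of its protein-coding genes were left out because they lie on unplaced scaffolds whose local positions would be read as chromosome positions (start before 3 Mb, or a break in the table's order of over 1 Mb). All 34 genes were matched by symbol. Distances run from the peak centre to the nearer gene end. Peaks overlap when they share at least 1 bp. Promoters came from a RefSeq table, 1 per gene, whose strand was also used.

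No test was run, since each treatment has 1 list. Counts are set beside the share of all protein-coding genes. The genes and lists were chosen with earlier results of these data known. The text names every gene of the 34, up to 4 genes per wider list by peak width, and any gene that shares a peak with the 34. It also names genes of the wider lists whose peak lay nearer to an end of another gene. The tools were Python 3.11.15, pandas 2.3.3, numpy 2.4.6, matplotlib 3.10.9 and scipy 1.17.1. On simulated data, 200 of 200 planted peaks were given their class. Printed coordinates count from 1.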

Additional observations from a re-analysis of the deposited data

How the results depend on the processing

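Of 33 alternative values, 21 stayed within 1.5 times the count given above or within the interval of the share, and 12 moved. The 16 of 34 genes with a thapsigargin peak at an end were 14 with a window of 500 bp (12.6% of all protein-coding genes). They were 5 with the wider part of the list (7.6%) and 0 with as many thapsigargin as DMSO peaks (1.32%). At the 5′ end of the 25 genes with a strand they were 10 (15%). The 24 within 50 kb were 14 with the wider part of the list (32.4%). In DMSO the 1 gene at an end became 2 with 3 kb (1.74%) and 2 with 5 kb (2.04%), adding Stt3a, and 0 at the 5′ end, where Ostc has no strand. The 5 within 50 kb became 2 with 20 kb (4.71%) and 2 with the wider part (4.41%). The 5 genes with a site in both lists within 50 kb became 3 with an overlap of 50% of the thapsigargin peak. Restricting motifs to promoters that a peak overlapped left 0% with the C/EBP half-site pair and 90% with the GC box. The wider part, the equal peak number and the 5′ end use fewer peaks or genes by construction. For the other settings the cause was not tested. No paired analysis was possible because each treatment has 1 list, which also leaves no replicate to leave out. The lists hold no depth, so a gene without a peak was not detected at these thresholds and is not shown to be unbound.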

Other observations

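Looked up beside these genes, 5 genes of muscle identity had no ATF4 peak at an end in either list, where 15.2% of all protein-coding genes had one in thapsigargin and 1.29% in DMSO. A count of 0 of 5 is not set apart from these shares. The nearest thapsigargin peak was 585 kb from Myod1, 16 kb from Myf5, 114 kb from Myog, 30.8 kb from Des and 114 kb from Pax7. In DMSO the closest of the 5 was again Myf5, with a peak 16.1 kb away, and for the others the nearest was 114 kb or more away.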
